A study of Mus musculus with 4 samples.

Results

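The 10 genes described here encode the KMT2 and SETD1 family of histone H3 lysine 4 (H3K4) methyltransferases and the core subunits that these enzymes share. They were taken by name: *Kmt2a*, *Kmt2b*, *Kmt2c*, *Kmt2d*, *Kmt2e*, *Setd1a*, *Setd1b*, *Wdr5*, *Ash2l* and *Rbbp5*. All 10 were found among the 23420 genes counted in mouse prefrontal cortex (PFC), 5 of them under older symbols: *Kmt2a* as *Mll1*, *Kmt2b* as *Wbp7*, *Kmt2c* as *Mll3*, *Kmt2d* as *Mll2* and *Kmt2e* as *Mll5*. *Mll2* has been a synonym of both *Kmt2b* and *Kmt2d*, and it was read as *Kmt2d* because *Wbp7* belongs to *Kmt2b* alone.

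Methylation of H3K4 marks active regulatory DNA, with trimethylation concentrated at promoters and monomethylation at enhancers. The mark is placed by COMPASS-type complexes, in which a large catalytic subunit with a SET domain sits on a common core of WDR5, RBBP5, ASH2L and DPY30 and has little activity without it. Several of the catalytic subunits are dosage-sensitive in the human brain, where loss of a gene copy is a known cause of developmental disorders.

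The PFC of C57BL6/J mice was injected with adeno-associated virus (AAV9) that carried GFP in the control group or an shRNA against *Ash1L* in the other group, and there were 2 samples in each. *Ash1L* is itself a histone methyltransferase of the trithorax group. According to the methods of the study the control virus carried a scrambled shRNA, the shRNA was driven by a U6 promoter that is not restricted to a cell type, virus was given at 5 weeks of age, and punches of GFP-positive PFC from 3 mice were pooled for each sample. The submitters' design text gives an age of 6 to 8 weeks and lists 2 control and 3 knockdown mice, and the sources used here do not settle which animals made up each sample. All mice were otherwise wild type, the tissue was lysed whole, and the punches may hold uninfected cells. P-values therefore measure the spread between these samples, whichever animals they hold.

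Total counts were 14251190 and 35764874 in control samples 1 and 2, and 27479339 and 20106708 in *Ash1L* shRNA samples 1 and 2. Counts were scaled by edgeR's trimmed mean of M-values (TMM) and are given as normalized counts at a common library size. *Ash1l*, the targeted gene, had 5961 and 7057 normalized counts in the control samples and 5246 and 3345 in the *Ash1L* shRNA samples. All shRNA values lay below all control values, and shRNA sample 2 was the lower of the pair. The log2 fold change of *Ash1l* was -0.60 (SE 0.22), with an adjusted p of 0.275 by edgeR's quasi-likelihood test, a DOWN call by the rule given below. The call was lost without shRNA sample 2 (-0.31) and without control sample 1 (-0.71) or 2 (-0.48). It was also lost with an offset for gene length, alone (-0.53) or with the replicate number as a block (-0.56). *Ash1l* shares 2.37% of its exonic bases with *Dap3* on the opposite strand. Of the cell type markers, 4 of 8 for excitatory neurons and 5 of 8 for astrocytes were DOWN, beside 8.28% of all genes tested, and the other 3 astrocyte markers had log2 fold changes of 0.00 to 0.11. Their summed levels were 2891 and 3373 CPM (counts scaled to the TMM-adjusted library size) in control against 2662 and 2157 CPM in shRNA samples for excitatory neurons, and 5374 and 5693 CPM against 4338 and 3227.5 CPM for astrocytes, where *Slc1a2* made up 3159 CPM of control sample 1. The same levels were 792 and 710.1 CPM against 696 and 674 CPM for interneurons, and 7728 and 7964 CPM against 6971 and 5969 CPM for pan-neuronal markers. Among the other lists, 3 of 8 interneuron, 1 of 8 pan-neuronal and 1 of 8 oligodendrocyte markers were DOWN. UP calls were given to 1 of 5 oligodendrocyte precursor and 1 of 4 leptomeningeal markers, beside 8.61% of all genes tested. Microglial and endothelial markers gave no call, although the summed microglial level was 1100.0 CPM in shRNA sample 1 and 437 CPM in shRNA sample 2 against 829.7 and 849 CPM in the controls. None of these cell type markers was at 0. Fewer cells of a type and less RNA per cell cannot be told apart in these bulk samples, and the part of tissue composition in the results below was not tested. Of 4 Y-linked genes, all detected in each sample, *Ddx3y* was UP at 3686 and 4458 normalized counts against 2876 and 2206 in the controls, and the other 3 were not called, with log2 fold changes of -0.12 to 0.02. *Xist* had 2 to 9 counts in each sample and was not tested. The methods of the study name male and female mice, while these sex-linked counts are those of mainly male tissue in each sample.

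The first question was whether mRNA of the H3K4 methyltransferase genes differed after *Ash1L* knockdown. *Setd1b* and *Kmt2e* were lower in the *Ash1L* shRNA group, *Rbbp5* was higher, and the other 7 genes did not pass the test. A gene was called DOWN or UP where edgeR's quasi-likelihood test gave an unadjusted p under 0.05 and the change was at least 1.2-fold. These limits follow the study's methods, which applied them to DESeq2 and do not say whether p was adjusted. That made 2 of 10 genes DOWN, beside 8.28% of all 16232 genes tested, and 1 of 10 UP, beside 8.61%. In either direction it was 3 of 10, beside 16.9%. None of the 10 had a Benjamini-Hochberg adjusted p under 0.05 by edgeR's quasi-likelihood test, where 0.00616% of all genes did, by its likelihood ratio test (2.95%) or by DESeq2 (2.52%), and 3 had an unadjusted p under 0.05 in the quasi-likelihood test, beside 16.9%. With a limit of 1.5-fold none of the 10 was called, beside 3.02% DOWN and 4.71% UP. The groups did not overlap for 4 of the 10 genes, beside 53.2% of all genes: 3 were lower in both shRNA samples than in either control, beside 26.8%, and 1 was higher, beside 26.5%. The median log2 fold change of the 10 genes was -0.11, beside -0.0027 over all genes tested. Of the 10, 8 were below 0, beside 8164 of the 16232 genes tested. The median was -0.04 with an offset for gene length and -0.02 without shRNA sample 1. With 10 genes, shares of this size lie near those of all genes and say nothing of the 10 as a group. Over all genes, calls were fewer with either control sample or shRNA sample 2 left out and more with shRNA sample 1 left out. A call lost or gained in such a fit is therefore not particular to its gene.

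**Figure D1:**
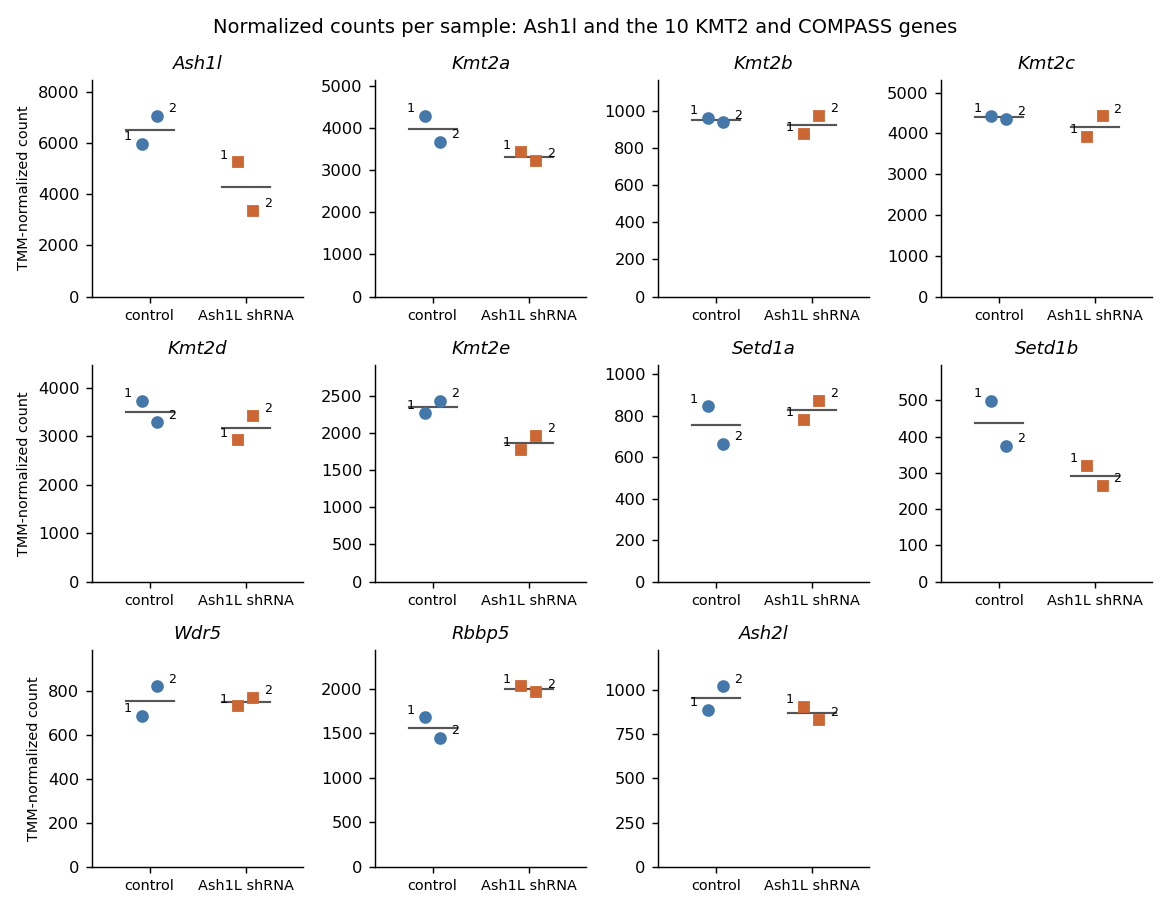
Normalized counts (y axis, TMM-scaled counts, from 0) in each control sample (circles) and *Ash1L* shRNA sample (squares), numbered by replicate, with the group mean as a line, for *Ash1l* and the 10 genes. The shRNA samples sit apart from and below both controls for *Ash1l*, *Kmt2a*, *Kmt2e* and *Setd1b*, and above both for *Rbbp5*.

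KMT2A and KMT2B are the enzymes that act with menin at promoters. *Kmt2a* (Ensembl gene ENSMUSG00000002028, mm10 chr9:44803355-44881296, minus strand) had 4291 and 3682 normalized counts in the control samples and 3427 and 3222 in the *Ash1L* shRNA samples. Both shRNA samples were below both controls, and the controls differed from each other by more than the shRNA samples did. The means were 3987 ± 431 and 3324 ± 145 (SD, n = 2 each). The log2 fold change of *Kmt2a* was -0.26 (SE 0.12, 95% interval -0.56 to 0.04), with an adjusted p of 0.336 by edgeR's quasi-likelihood test, so that the separated groups did not give a call. *Kmt2b* (ENSMUSG00000006307, chr7:30568858-30588726, minus strand) had 963 and 941 normalized counts in control and 877 and 975 in shRNA samples. The groups overlapped, with shRNA sample 2 the highest of the 4 and shRNA sample 1 the lowest. Its log2 fold change was -0.04 (SE 0.13, 95% interval -0.34 to 0.26), an interval that leaves out a change of 1.5-fold in either direction. The difference between the paralogues was not tested. *Kmt2a* shares 2.27% of its exonic bases, and *Kmt2c* 1.35%, with opposite-strand genes that are not among those counted.

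KMT2C and KMT2D are the enhancer enzymes, found in a complex with the demethylase KDM6A and the coactivator NCOA6. *Kmt2c* (ENSMUSG00000038056, chr5:25271798-25498783, minus strand) had 4429 and 4355 normalized counts in the controls and 3918 and 4418 in the shRNA samples. Only shRNA sample 1 lay below the controls, and shRNA sample 2 lay between them. The log2 fold change of *Kmt2c* was -0.08 (SE 0.12, 95% interval -0.36 to 0.20). *Kmt2d* (ENSMUSG00000048154, chr15:98831669-98871204, minus strand) had 3724 and 3288 normalized counts in the controls and 2916 and 3418 in the shRNA samples. Here too shRNA sample 1 was the lowest of the 4 and shRNA sample 2 lay between the controls. The log2 fold change of *Kmt2d* was -0.15 (SE 0.13, 95% interval -0.47 to 0.17). Neither gene was called.

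KMT2E is the divergent member of the family, a chromatin-bound protein with a PHD finger that binds methylated H3K4 and a SET domain with no clear H3K4 methyltransferase activity. *Kmt2e* (ENSMUSG00000029004, chr5:23434441-23504235, plus strand) had 2268 and 2428 normalized counts in the control samples and 1776 and 1963 in the *Ash1L* shRNA samples. Both shRNA samples lay below both controls. The means were 2348 ± 113 and 1869 ± 132 (SD, n = 2 each), 0.796 of the control level. *Kmt2e* fell by 0.33 on the log2 scale (SE 0.12), with an unadjusted p of 0.0268 and an adjusted p of 0.262 by edgeR's quasi-likelihood test. This call was lost when shRNA sample 1 (-0.26), control sample 1 (-0.37) or control sample 2 (-0.28) was left out. It was also lost with library sizes in place of TMM (-0.29, edgeR's unadjusted p 0.0535) or with the replicate number as a block (-0.33, edgeR's p 0.0511). The block plus an offset for gene length lost it too (-0.28, edgeR's p 0.0846). Of its exonic bases, 9.31% are shared with *Srpk2* on the opposite strand, and whether the counting used strand is not given in the sources used here.

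SETD1A and SETD1B carry COMPASS proper, which places most trimethylated H3K4 at promoters together with CXXC1 and WDR82. The paralogues had opposite signs in these samples. *Setd1b* (ENSMUSG00000038384, chr5:123142193-123168629, plus strand) had 498 and 374 normalized counts in the control samples and 319 and 264 in the *Ash1L* shRNA samples. Every shRNA value was below every control value, and the controls were wide apart. The means were 436 ± 87.4 and 291 ± 38.7 (SD, n = 2 each), 0.673 of the control level and the largest change among the 10 genes. *Setd1b* fell by 0.57 on the log2 scale (SE 0.21, 95% interval -1.07 to -0.07), with an unadjusted p of 0.0306 and an adjusted p of 0.265 by edgeR's quasi-likelihood test. The call was lost without control sample 1 (-0.35), without shRNA sample 2 (-0.44) and with an offset for GC content (-0.48, edgeR's unadjusted p 0.0515). *Setd1b* also had the lowest counts of the 10, with 225 to 540 raw counts a sample.

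*Setd1a* (ENSMUSG00000042308, chr7:127776670-127800122, plus strand) had 844 and 666 normalized counts in the controls and 781 and 871 in the shRNA samples. The groups overlapped, and the control samples held both the lowest value and the second highest. The log2 fold change of *Setd1a* was 0.13 (SE 0.16, 95% interval -0.25 to 0.52), and without control sample 2 it was -0.04. The annotation places 52.27% of its exonic bases in other genes, nearly all in the same-strand gene *Gm49388*, which is not among the genes counted. In the same sample, the level of *Setd1a* per kb of exon was 2.27 and 2.38 times that of *Setd1b* in the controls and 3.28 and 4.42 times in the *Ash1L* shRNA samples, so that the ratio was higher in both shRNA samples than in either control. The ratio is given as a description, since an exact permutation test of 2 against 2 samples cannot go below a two-sided p of 0.333.

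The shared core was measured through *Wdr5*, *Ash2l* and *Rbbp5*. WDR5 is the WD40 protein that holds the SET enzymes to the core, ASH2L binds DPY30 and stimulates the methyltransferase, and RBBP5 contacts the SET domain together with ASH2L. *Wdr5* (ENSMUSG00000026917, chr2:27515157-27536535, plus strand) had 688 and 822 normalized counts in the controls and 730.1 and 768 in the shRNA samples, all of the latter inside the control range. The log2 fold change of *Wdr5* was -0.02 (SE 0.14, 95% interval -0.36 to 0.33). *Ash2l* (ENSMUSG00000031575, chr8:25815996-25847694, minus strand) had 888 and 1022 normalized counts in the controls and 905 and 831 in the shRNA samples. Only shRNA sample 2 was below both controls, and the log2 fold change of *Ash2l* was -0.14 (SE 0.14, 95% interval -0.47 to 0.19).

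*Rbbp5* (ENSMUSG00000026439, chr1:132477365-132505659, plus strand) went the other way. It had 1675 and 1445 normalized counts in the control samples and 2027 and 1961 in the *Ash1L* shRNA samples. Both shRNA samples were above both controls and close to each other. The means were 1560.2 ± 163 and 1994 ± 46.4 (SD, n = 2 each), 1.28 times the control level. *Rbbp5* rose by 0.36 on the log2 scale (SE 0.12, 95% interval 0.06 to 0.65), with an unadjusted p of 0.0246 and an adjusted p of 0.262 by edgeR's quasi-likelihood test. The call was lost without control sample 2, where the value was 0.25, and with the replicate block and a GC offset together (0.34, edgeR's unadjusted p 0.0537). It shares no annotated exon with another gene, as is true of *Kmt2b*, *Kmt2d*, *Setd1b*, *Wdr5* and *Ash2l*. Per kb of exon, the ratio of *Rbbp5* to *Ash2l* was 1.80 and 1.35 in the controls and 2.14 and 2.25 in the shRNA samples. This ratio is a description only, since *Rbbp5* was called UP in these same samples.

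**Figure D2:**
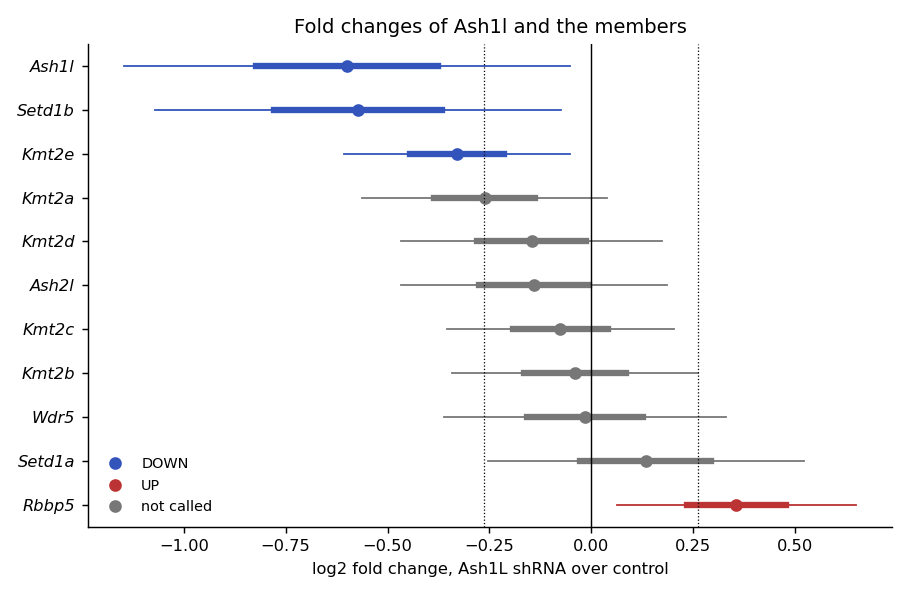
Log2 fold change of *Ash1L* shRNA over control (x axis) for *Ash1l* and the 10 genes, with the SE as a thick bar, the 95% interval of edgeR's quasi-likelihood test as a thin line and the 1.2-fold limits dotted. The intervals of *Setd1b* (-1.07 to -0.07), *Kmt2e* (-0.61 to -0.05) and *Rbbp5* (0.06 to 0.65) leave out 0, and those of the other 7 genes include it.

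The 250 bases before the transcription start are shown for the one called gene with an entry in the RefSeq promoter table (GRCm38.p6), *Rbbp5* at chr1:132477117-132477366 on the plus strand, and for the gene at the other end of the CG range, *Kmt2c* at chr5:25498784-25499033 on the minus strand. Capitals mark the dinucleotide CG, which reads the same on both strands and is the target of CXXC-domain proteins such as KMT2A, KMT2B and CXXC1.
Rbbp5: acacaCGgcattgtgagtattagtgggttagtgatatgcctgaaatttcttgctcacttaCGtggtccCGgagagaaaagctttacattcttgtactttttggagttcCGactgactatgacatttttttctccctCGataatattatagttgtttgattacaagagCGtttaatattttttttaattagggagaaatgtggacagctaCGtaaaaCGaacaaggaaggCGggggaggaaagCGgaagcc
Kmt2c: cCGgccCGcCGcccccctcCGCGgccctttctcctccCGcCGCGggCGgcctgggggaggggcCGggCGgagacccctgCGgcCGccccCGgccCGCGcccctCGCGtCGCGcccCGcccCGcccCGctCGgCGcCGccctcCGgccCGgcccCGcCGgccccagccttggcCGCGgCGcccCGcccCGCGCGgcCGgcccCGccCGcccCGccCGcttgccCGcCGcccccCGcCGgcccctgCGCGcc
The *Rbbp5* window holds 10 CG at 40.0% GC, and 37.8% of the 32851 promoters of that length hold as many or more. The *Kmt2c* window holds 48 CG at 91.6% GC, a count reached by 0.2% of all promoters. The table had entries for 6 of the 10 genes. *Kmt2a* held 29 CG, *Kmt2d* 26, *Setd1a* 25 and *Wdr5* 12, against a median of 6 over all promoters, of which 92.1% hold at least 1. The counts describe these letters only and say nothing of binding.

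The genes were next compared with each other by their levels in CPM per kb of exon (basic GENCODE vM21 transcripts), since longer transcripts collect more reads. *Rbbp5* was the highest, at 17.4 ± 1.81 CPM per kb in the controls (SD, n = 2) and 22.2 CPM per kb in the shRNA samples. *Kmt2e* followed at 13.2 CPM per kb in the controls, then *Kmt2c* at 12.1, *Ash2l* at 11.2, *Wdr5* at 10.7 and *Kmt2a* at 9.95 CPM per kb. Among these 5 genes, neighbours in this order had overlapping ranges over the 4 samples. Within samples, over the basic transcripts, *Kmt2e* lay above *Kmt2c* in both controls and below it in both shRNA samples. *Kmt2c* lay above *Ash2l* in all 4 samples, but by little in control sample 2 and shRNA sample 1. The order of *Ash2l* and *Wdr5*, and that of *Wdr5* and *Kmt2a*, was not the same in all 4 samples. *Kmt2c* (10.8 to 12.2 CPM per kb) lay above *Kmt2a* (8.04 to 10.7 CPM per kb) in all 4 samples. *Kmt2d* at 7.27 CPM per kb was separate from *Kmt2a* above it and from *Setd1a* below it. *Setd1a* at 4.69 and *Kmt2b* at 4.62 CPM per kb overlapped, and *Setd1b* was the lowest at 2.02 ± 0.41 CPM per kb in the controls and 1.35 in the shRNA samples. Among all genes tested, the mean levels over all 4 samples ran from percentile 23.7 for *Setd1b* to percentile 78.2 for *Rbbp5*. The order depends on the transcripts counted. Over the full GENCODE set the control means were 4.38 CPM per kb for *Ash2l*, 9.24 for *Kmt2e*, 8.90 for *Kmt2c* and 9.83 for *Kmt2a*. There the mean of *Kmt2a* lay above that of *Kmt2c*, and *Kmt2e* was not above *Kmt2c* in control sample 1. *Rbbp5* stayed first and *Setd1b* last.

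**Figure D3:**
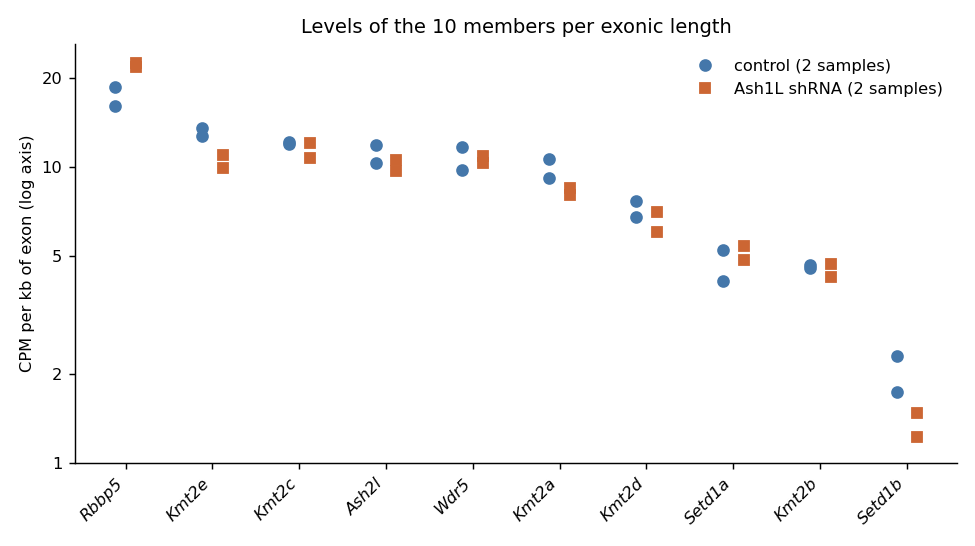
Level per length (y axis, CPM per kb of exon, log scale) of the 10 genes (x axis, ordered by the control mean) in each control sample (circles) and *Ash1L* shRNA sample (squares). *Rbbp5* lies highest, between 16.1 and 22.6 CPM per kb, and *Setd1b* lowest, between 1.23 and 2.31 CPM per kb.

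Summed by role over the basic transcripts, the catalytic genes and the core genes lay close together. KMT2A to KMT2D summed to 35.3 and 32.5 CPM per kb in the controls and 29.6 and 32.0 in the shRNA samples, where both shRNA values were below both controls. *Setd1a* and *Setd1b* summed to 7.56 and 5.88 CPM per kb in the controls against 6.33 and 6.64, with overlapping groups. The core genes *Wdr5*, *Rbbp5* and *Ash2l* summed to 38.8 and 39.7 CPM per kb in the controls against 43.6 and 42.5. The ratio of these 3 core genes to the 6 active catalytic genes (KMT2E left out) was 0.907 and 1.035 in the controls and 1.21 and 1.10 in the shRNA samples. All shRNA ratios were above all control ratios. *Dpy30*, a core gene outside the 10, was not in the sum. It had 11.6 and 14.1 CPM per kb in the controls and 12.1 and 8.92 in the shRNA samples. With *Dpy30* added, the groups overlapped, both in the core sum and in its ratio to the catalytic genes. The separation therefore holds only without *Dpy30*. Within the core sum, *Rbbp5* alone had a higher mean in the shRNA samples, while *Wdr5* was at 10.7 CPM per kb in both groups and *Ash2l* at 11.2 against 10.1. These sums concern mRNA and carry no test. They depend on the transcripts counted, as does the ratio of *Rbbp5* to *Ash2l* above: over the full GENCODE set *Ash2l* was at 4.38 CPM per kb in the controls.

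The 2 *Ash1L* shRNA samples were unlike in their *Ash1l* level and were therefore looked at singly. Against the control mean, 5 of the 10 genes were lower in both shRNA samples, 2 were higher in both (*Setd1a* and *Rbbp5*) and 3 had opposite signs. *Setd1b* was -0.45 in shRNA sample 1 and -0.72 in shRNA sample 2 on the log2 scale, *Kmt2e* -0.40 and -0.26, *Kmt2a* -0.22 and -0.31, and *Rbbp5* 0.38 and 0.33. The sample with less *Ash1l* was the farther from the controls for 4 of the 10 genes. The median over the 10 genes was -0.14 in shRNA sample 1 and -0.01 in shRNA sample 2. The median SE of the 10 log2 fold changes was 0.13, beside 0.18 over all genes tested. The genes are also long, with a median of 7903 exonic bases beside 3255 over all genes. The 1113 tested genes with over 8 kb of exon, among them 5 of the 10, centred on -0.07 on the log2 scale. With an offset for length the values of *Setd1b*, *Kmt2e* and *Rbbp5* were -0.51, -0.28 and 0.37, and all 3 kept their calls. With the replicate number added as a block, *Kmt2e* (-0.28) lost its call.

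**Figure D4:**
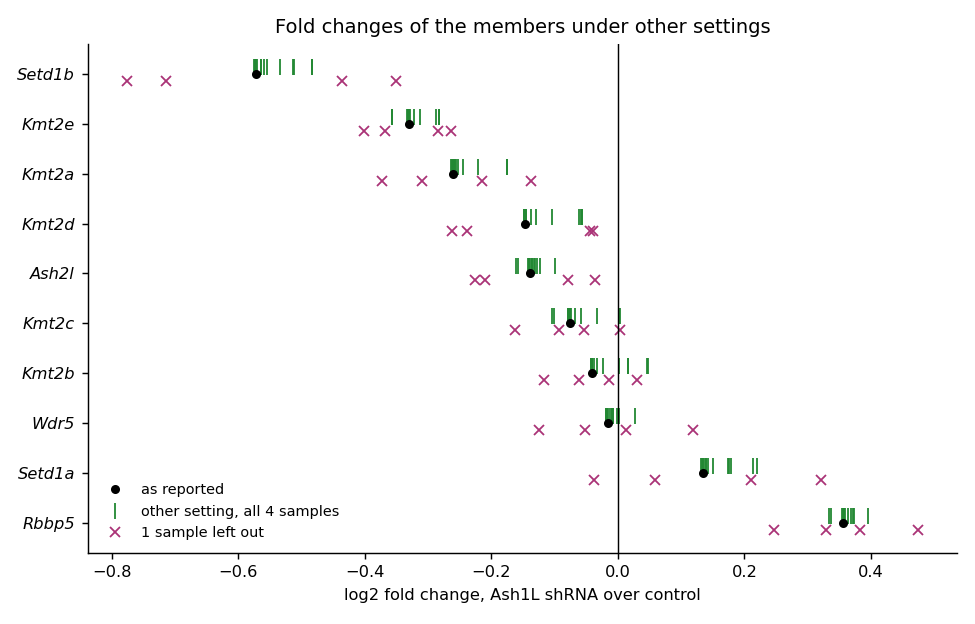
Log2 fold change of each gene (x axis) as reported (dots), under other settings with all 4 samples (ticks) and with 1 sample left out (crosses). *Setd1b* stayed between -0.78 and -0.35, *Kmt2e* between -0.40 and -0.26 and *Rbbp5* between 0.25 and 0.47, while *Kmt2b*, *Kmt2c*, *Setd1a* and *Wdr5* crossed 0.

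The wider H3K4 pathway was read in 5 lists, 49 genes in all, which were all tested. Of the 49, 3 were DOWN and 3 were UP, beside 8.28% and 8.61% of all genes, and the median log2 fold change was -0.02. Counts this near the shares of all genes say nothing of the 49 as a group. None had an adjusted p under 0.05 by edgeR's quasi-likelihood test, by its likelihood ratio test or by DESeq2. An unadjusted p under 0.05 in the quasi-likelihood test was found for 6, beside 16.9% of all genes. The 6 called genes had adjusted p-values of 0.260 to 0.281 in edgeR's quasi-likelihood test.

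Among 13 partners of the complexes, *Ncoa6* was DOWN and *Tasp1* was UP, beside 8.28% and 8.61% of all genes. The median was -0.13. *Ncoa6*, the coactivator of the KMT2C and KMT2D complex, had 1234 and 1185 normalized counts in the controls and 942 and 901 in the shRNA samples. It fell by 0.39 on the log2 scale (SE 0.12), with an adjusted p of 0.260 by edgeR's quasi-likelihood test. *Tasp1*, the protease that cleaves KMT2A and KMT2B, had 1458 and 1239.99 normalized counts in the controls and 1766 and 1623 in the shRNA samples. It rose by 0.33 on the log2 scale (SE 0.13). Both had groups that did not overlap, as did 53.2% of all genes. The call of *Ncoa6* was lost without control sample 1 (-0.35) or 2 (-0.43) and with the block plus a length offset (-0.34). That of *Tasp1* was lost without control sample 2 (0.21) or shRNA sample 1 (0.27), and with DESeq2 (0.33) and the replicate block (0.33) among others. Of the 14 other settings with all 4 samples, 8 kept the call of *Tasp1*.

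Among 14 readers of H3K4 methylation, *Ing2* and *Ing4* were DOWN, beside 8.28% of all genes, and none was UP, beside 8.61%. The median was -0.05. ING2 and ING4 are PHD finger proteins that bind trimethylated H3K4 in histone deacetylase and acetyltransferase complexes. *Ing2* had 614 and 738 normalized counts in the controls and 512 and 469.5 in the shRNA samples, and fell by 0.47 on the log2 scale (SE 0.15). *Ing4* had 820.3 and 841 normalized counts in the controls and 689 and 570.4 in the shRNA samples, and fell by 0.40 on the log2 scale (SE 0.14). The call of *Ing2* was lost without control sample 2 (-0.33), and that of *Ing4* without either control (-0.41 and -0.38), without shRNA sample 2 (-0.27) or with the replicate block (-0.41). At the other end of the list, *Phf13* had 369 and 307 normalized counts in the controls against 367 and 585 in the shRNA samples, so that its log2 fold change of 0.50 (SE 0.25) was carried by shRNA sample 2 and was not called. Without shRNA sample 1 it was 0.80.

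The last list held 10 genes of H2B ubiquitination and the PAF1 complex, which act upstream of H3K4 methylation. *Ube2a* and *Leo1* were UP, beside 8.61% of all genes, and none was DOWN, beside 8.28%. The median was 0.10 and 8 of 10 were above 0, beside 8068 of the 16232 genes tested. The list was not tested as a group. *Ube2a*, an H2B ubiquitin-conjugating enzyme, had 731 and 705 normalized counts in the controls and 878 and 908 in the shRNA samples, and rose by 0.32 on the log2 scale (SE 0.12). *Leo1*, a PAF1 complex subunit, had 794 and 646 normalized counts in the controls and 976 and 974 in the shRNA samples, and rose by 0.44 on the log2 scale (SE 0.15). The call of *Leo1* was lost without control sample 2 (0.29). That of *Ube2a* was lost without either control (0.35 and 0.29), without shRNA sample 2 (0.30), and with DESeq2 and the replicate block (both 0.32) among others. Of the 14 other settings with all 4 samples, 8 kept the call of *Ube2a*. The lowest of the list was *Rtf1* at -0.23 (SE 0.10), which was not called. Groups did not overlap for 7 of the 10, beside 53.2% of all genes. Of the 10, 6 were higher in both shRNA samples, beside 26.5% of all genes, and 1 was lower, beside 26.8%.

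None of the 7 H3K4 demethylase genes and none of the 5 other H3K4 methyltransferase genes was called, beside 16.9% of all genes. Among the demethylases the values ran from -0.33 (SE 0.17) for *Kdm1b* to 0.14 (SE 0.14) for *Kdm5c*. The value of *Kdm5c* was 0.29 without shRNA sample 1 and -0.03 without shRNA sample 2. Among the other methyltransferases they ran from -0.17 (SE 0.14) for *Smyd3* to 0.41 (SE 0.45) for *Smyd1*, a muscle enzyme with 17.3 to 26.7 normalized counts a sample, where the depth could not show a change of this size.

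**Figure D5:**
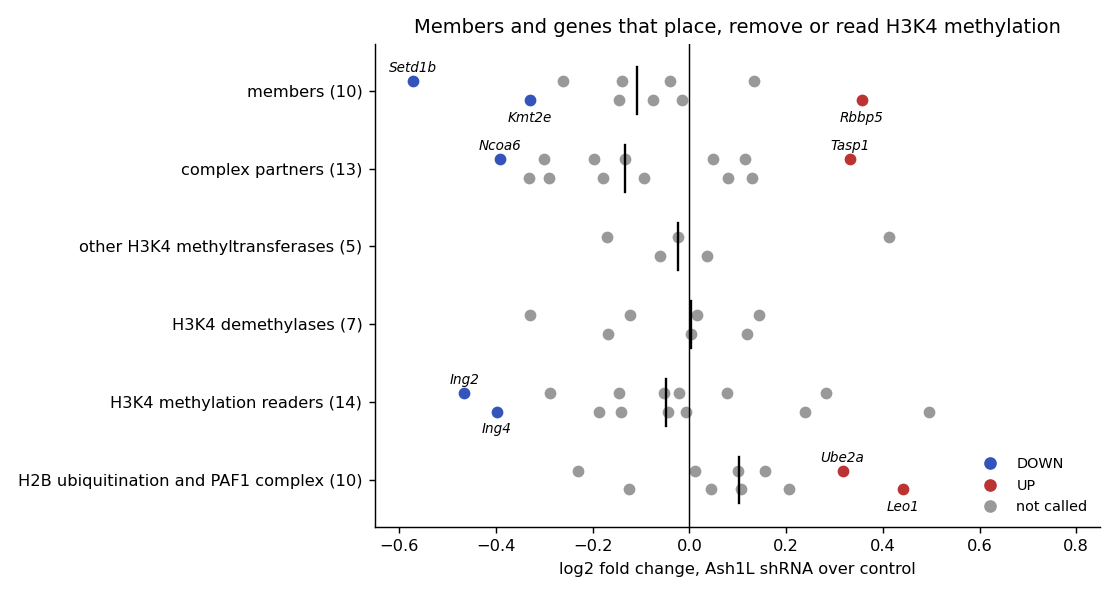
Log2 fold change of *Ash1L* shRNA over control (x axis) for the 10 genes and the 49 genes of the 5 pathway lists, 1 dot a gene, blue for DOWN, red for UP and grey for not called, with the list median as a bar. The medians lie between -0.13 and 0.10, and called genes occur in 3 of the 5 pathway lists, 2 in each.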

How the data were processed

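Total RNA from PFC punches was sequenced as stranded, ribosomal RNA-depleted libraries. The authors deposited raw counts per gene for each sample, made with STAR and featureCounts on mm10 according to the submitters' processing notes, while the extract protocol names Cutadapt and TopHat2. The handling of strand and of reads mapping to several places is not given in the sources used here.

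Genes were matched through RefSeq synonyms (GRCm38.p6): of 23420 symbols, 21988 were current, 1275 older, 7 older and resolved by elimination, and 150 were not matched. Positions and exon lengths came from GENCODE vM21 of the same build. Counts were filtered by filterByExpr (16232 genes), scaled by TMM and tested with edgeR 4.0.16 in R 4.3.3 (robust dispersions, quasi-likelihood fit, group as the only term), and p-values were adjusted by the Benjamini-Hochberg method over all genes tested. DOWN and UP need an unadjusted p under 0.05 and at least a 1.2-fold change, on these p-values. SE was obtained from the log2 fold change and its F statistic. The procedure was checked on simulated counts. With 2 samples a group, precision rests on dispersion shared across genes (common biological coefficient of variation 0.1734).

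The 10 genes were taken by name, and they, the pathway lists and the marker lists were chosen with earlier results of these data known. Genes named from the pathway lists are those called and the lowest and highest log2 fold changes of each list. *Dpy30* was named in addition as a core gene, after its values were seen. Alternatives were DESeq2 1.42.0, other edgeR tests, scalings and filters, GC and length offsets, a replicate block, a 1.5-fold limit, and leaving out each sample.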

Additional observations from a re-analysis of the deposited data

How the results depend on the processing

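*Setd1b* and *Kmt2e* kept a negative and *Rbbp5* a positive log2 fold change under all 14 other settings with the 4 samples and all 4 fits with a sample left out. With a 1.5-fold limit 0 of the 10 genes and 0 of the 49 pathway genes were called. The count of DOWN genes among the 10 was 1 rather than 2 with the GC offset, with library sizes, with the replicate block and with the block plus a length offset, and 0 to 1 with a sample left out. The count of UP genes was 0 rather than 1 with the block plus a GC offset, and 0 to 1 with a sample left out. Among the 49 pathway genes, DOWN calls were 3 as reported, 2 with the replicate block and with the block plus a length offset, and 0 to 6 with a sample left out. UP calls were 3 as reported, 1 with DESeq2, the likelihood ratio test, the GC offset, the replicate block and the block plus either offset, and 0 to 5 with a sample left out. Adjusted p-values from edgeR's quasi-likelihood test were under 0.05 for 0 pathway genes as reported and for 0 to 3 with a sample left out: *Phf13*, *Ing4* and *Kdm6a* (the last named after its values were seen), without shRNA sample 1, where 15.2% of all genes had one. The samples left alone in a group were assumed to vary like the other group.

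The median log2 fold change ran from -0.1393 to -0.0181 for the 10 genes and from -0.0572 to 0.0321 for the pathway genes over these settings. Of the named genes, *Kmt2b*, *Kmt2c*, *Setd1a*, *Wdr5* and *Kdm5c* changed sign, none of them called as reported. *Kmt2b* was 0.05 with the GC offset (0.0472), 0.0162 with the length offset, 0.0015 with library sizes, 0.0457 and 0.0155 with the block plus the GC or the length offset, and ran from -0.1162 to 0.0306 with a sample left out. *Kmt2c* was 0.0028 with the length offset, 0.0018 with the block added and -0.1624 to 0.0039 with a sample left out. With a sample left out *Setd1a* ran from -0.0373 to 0.3204 and *Kdm5c* from -0.0262 to 0.2927. *Wdr5* was 0.0267 with library sizes, 0.0011 with upper-quartile scaling, 0.0132 without shRNA sample 1, and -0.1244 to 0.1182 with any sample left out.

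Samples of the same number did not deviate together (correlation of deviations from the group means -0.1097). With 2 samples a group the deviations mirror each other, so this value cannot decide whether the numbers pair the samples. With the replicate block, 6.28% of all genes were DOWN and 6.48% UP. With the numbers crossed, an alternative added after seeing the data, 5 pathway genes were DOWN and 5 UP, beside 10.7% and 9.49% of all genes. Depth limits *Smyd1*, the gene with the fewest counts among those named.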
